A study of Mus musculus with 6 samples.

Results

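The antiviral restriction effectors are 10 genes whose products block steps of viral replication: the Mx GTPases (Mx1, Mx2), viperin (Rsad2) and its neighbour Cmpk2, the deoxynucleotide hydrolase Samhd1, tetherin (Bst2) and 4 interferon-induced transmembrane proteins (Ifitm1, Ifitm2, Ifitm3, Ifitm6). They were chosen by gene symbol, and all 10 were found among the 23034 genes of the deposited table. RNA sequencing was done on wild-type mouse bone marrow cells that had been grown into macrophages with M-CSF (10 ng/ml), given IL-4 (20 ng/ml) for 24 hours to reach the M2 state and reseeded. They then received SA@BATMAN5 for 24 hours (3 libraries) or PBS (3 Control libraries). The title of the series speaks of tuftsin clusters directed at Fc gamma receptors, tuftsin being a short peptide cut from immunoglobulin G, and of macrophages in secondary infection after sepsis. The labels do not spell out what SA@BATMAN5 is, its dose, the strain, or the number of mice. Since nothing says that the 3 libraries of a group are separate cultures, p-values cover library-to-library spread, part or all of which may be technical.

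Interferons bind receptors that signal through JAK kinases, and transcription factors activated by this route bind the interferon-stimulated response element (ISRE) in target promoters. Restriction effectors are known as targets of this route in macrophages. They act at different steps of infection. IFITM proteins hinder fusion of virus and host membranes, Mx proteins trap incoming viral components, SAMHD1 and viperin act on nucleotides, and tetherin holds budding virions at the cell surface.

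SA@BATMAN5 libraries held 29739263 to 37212125 counts and Control libraries 38740103 to 47018154, and the treated libraries were the shallower in every case. Levels are given as CPM, counts scaled to a common library size and corrected by edgeR's TMM factors, and a floor of 3 counts was 0.0828 to 0.103 CPM in SA@BATMAN5 libraries and 0.0620 to 0.0752 CPM in Control libraries. Macrophage markers were high in both groups, with a summed level of 21770 to 22044 CPM in SA@BATMAN5 and 15859 to 16045 CPM in Control libraries over 8 genes. In bulk RNA, fewer cells of a type and less RNA per cell cannot be told apart.

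Of the 10 members 9 rose, 0 fell and Ifitm1 did not pass, at an adjusted p under 0.05 with edgeR's quasi-likelihood test. Among all 13474 genes tested, 29.5% rose and 28.7% fell, or 3980 and 3866 genes. That balance rests on the scaling, since library totals gave 3291 higher and 4694 lower and the upper quartile 3239 higher and 4791 lower. The rise was at least 2-fold for 8 members, against 9.17% of all tested genes. Ifitm6 is counted in both, though it met the filter on low counts through the SA@BATMAN5 libraries alone. Its levels therefore had to differ in that direction, which favours a call but does not ensure it. Among the other 9 members, 8 rose and 7 of these rose by at least 2-fold. The median log2 fold change of the 10 members was 3.76, beside -0.00 for all tested genes. The changes were spread from -0.33 to 5.73 on the log2 scale, with the Mx genes, Rsad2, Cmpk2 and Ifitm3 above 4.5 and Samhd1 and Ifitm2 far below them.

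**Figure D1:**
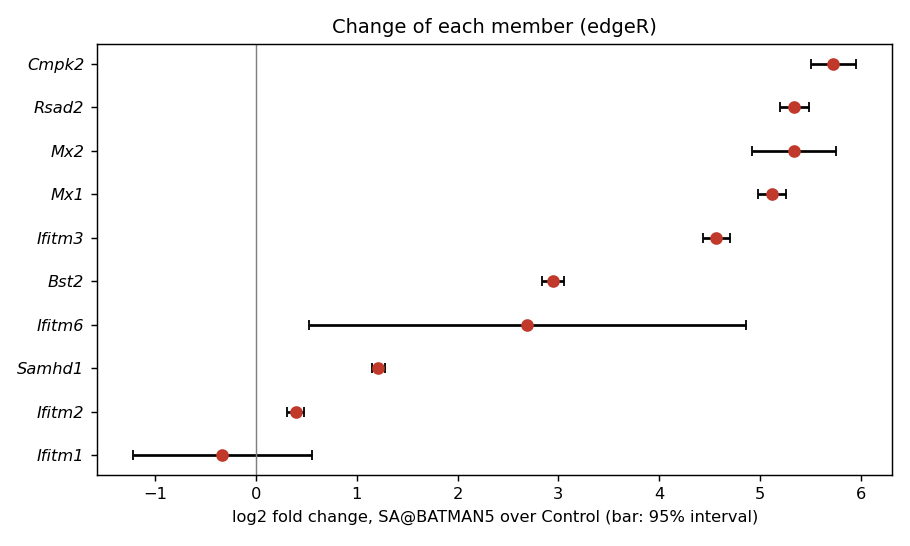
Log2 fold change (SA@BATMAN5 over Control, x axis) of each member with its 95% interval from edgeR's fit on 3 libraries per group. Cmpk2 (5.73), Rsad2, Mx2, Mx1 and Ifitm3 (4.57) lie furthest right, Ifitm2 at 0.39 lies just right of 0, and the interval of Ifitm1 spans 0.

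Mx1 and Mx2 encode dynamin-like GTPases, and mouse Mx1 is known for resistance to influenza virus. Many inbred laboratory strains carry defective copies, and RefSeq lists both genes as transcribed pseudogenes in the C57BL/6J genome, and whether protein is made was not measured. Mx1 stood at 346, 296 and 327 CPM in SA@BATMAN5 libraries, against 8.88, 9.87 and 9.11 CPM in Control libraries. Every SA@BATMAN5 library was thus far above every Control library, and the fold was 34.8 (log2 fold change 5.12 ± 0.06 SE, adjusted p 1.44e-16, edgeR). Mx2 was the scarcer of the pair, with 30.5, 25.2 and 30.9 CPM after SA@BATMAN5 and 0.619, 1.03 and 0.537 CPM in Control libraries. Its fold was 40.3 (log2 fold change 5.33 ± 0.19 SE, adjusted p 1.91e-12, edgeR), resting on 96 counts in all Control libraries together. The log2 ratio of Mx1 to Mx2 was 3.49 ± 0.08 in SA@BATMAN5 and 3.73 ± 0.42 in Control libraries (SD, n = 3 each), and the ranges overlapped (exact permutation p = 0.4, two-sided). The difference of -0.24 was -0.38 with FPKM, -0.07 without Control replicate 3 and -0.48 without Control replicate 2.

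Rsad2 encodes viperin, a radical SAM enzyme that turns CTP into a chain-terminating nucleotide, and Cmpk2 encodes a mitochondrial kinase for CMP and UMP. The genes are neighbours on chromosome 12 and point away from each other, with starts 12.8 kb apart in RefSeq's GRCm38.p6 annotation. Rsad2 had 594, 510 and 569 CPM in SA@BATMAN5 libraries and 14.2, 14.8 and 12.5 CPM in Control libraries. Cmpk2 had 235, 196 and 230 CPM in SA@BATMAN5 libraries and 3.42, 4.31 and 4.75 CPM in Control libraries. For each gene the groups were far apart and the libraries of a group close together.

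Cmpk2 had the largest fitted rise of the 10 members, 53.0-fold (log2 fold change 5.73 ± 0.11 SE, adjusted p 2.53e-15, edgeR). It was not first with limma on log2(FPKM + 1), where Rsad2 had 4.87 and Cmpk2 4.75, or without Control replicate 2, where Ifitm6 had 6.83 and Cmpk2 5.75. Rsad2 rose 40.5-fold (5.34 ± 0.07 SE, adjusted p 1.97e-16, edgeR). Among the 13474 tested genes they ranked at positions 109 and 127 by log2 fold change. The log2 ratio of Rsad2 to Cmpk2, from CPM, was 1.34, 1.38 and 1.31 in SA@BATMAN5 libraries and 2.06, 1.78 and 1.39 in Control libraries. The ratio was lower in each SA@BATMAN5 library than in any Control library, by 0.40 on average. The difference was -0.24 without Control replicate 1 and -0.58 without Control replicate 3. The exact two-sided permutation p was 0.1, the smallest that 3 against 3 libraries can give (0.16 adjusted over 8 ratios and shares compared). Of the Control libraries, replicate 3 lay closest to the SA@BATMAN5 values.

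Samhd1 encodes a hydrolase of deoxynucleoside triphosphates that in human myeloid cells limits reverse transcription of HIV. It stood at 834, 798 and 802 CPM in SA@BATMAN5 libraries and was already abundant in Control libraries, at 360, 345 and 343 CPM. Its 2.32-fold rise (log2 fold change 1.21 ± 0.03 SE, adjusted p 3.20e-13, edgeR) was small beside those of the Mx genes and viperin. Libraries within a group agreed closely, with an SD of 2.41% of the mean in SA@BATMAN5 and 2.67% in Control libraries.

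Bst2 encodes tetherin, which spans the membrane and anchors enveloped virions to the cell. Bst2 had 630, 557 and 601 CPM in SA@BATMAN5 libraries, against 76.5, 83.0 and 73.0 CPM in Control libraries, with no overlap. Its fold was 7.70 (log2 fold change 2.94 ± 0.05 SE, adjusted p 5.39e-15, edgeR). The protein is also used as a surface marker of plasmacytoid dendritic cells in unstimulated mice. Of 8 markers of that cell type, the defining Siglech and also Klk1 had 0 counts in all 6 libraries, which allows up to 3 counts each. Ccr9 rose, at 1.29 ± 0.122 CPM in SA@BATMAN5 and 0.142 ± 0.0493 CPM in Control libraries, though it met the filter on low counts through the SA@BATMAN5 libraries alone. Spib, too low to be tested, had 25 counts in SA@BATMAN5 and 2 in Control libraries. The other 2 markers tested did not pass, Runx2 at 16.7 ± 1.29 CPM in SA@BATMAN5 and 17.3 ± 1.69 CPM in Control libraries, and Cox6a2 at 1.45 ± 0.534 CPM in SA@BATMAN5 and 1.14 ± 0.292 CPM in Control libraries. The summed level of the 8 was 18.8 to 20.8 CPM in SA@BATMAN5 and 16.6 to 20.4 CPM in Control libraries, but Runx2, which macrophages may also express, makes up most of it, so the sum does not show the rarer markers. Their part in the rise of Bst2 was not tested.

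The Ifitm genes lie in a cluster on chromosome 7, in the order Ifitm2, Ifitm1, Ifitm3 and Ifitm6, within 60.9 kb between the first and last start (RefSeq, GRCm38.p6). Ifitm3, whose product restricts influenza virus in late endosomes, had the largest fitted rise of the 4. Ifitm3 had 651, 573 and 597 CPM in SA@BATMAN5 libraries, against 22.7, 27.4 and 26.9 CPM in Control libraries. Its fold was 23.7 (log2 fold change 4.57 ± 0.06 SE, adjusted p 7.74e-16, edgeR). Ifitm2, a close paralog that acts in endosomes as well, had 146, 143 and 140 CPM in SA@BATMAN5 libraries and 114, 108 and 104 CPM in Control libraries. The groups did not overlap, but the fold was only 1.31 (log2 fold change 0.39 ± 0.04 SE, adjusted p 1.10e-06, edgeR).

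Ifitm1, placed between Ifitm2 and Ifitm3 and known from germ cells and the cell surface, was near the limit of detection. Its counts were 14, 11 and 11 in SA@BATMAN5 libraries and 20, 16 and 25 in Control libraries. In CPM the groups did not overlap, at 0.304 to 0.389 in SA@BATMAN5 and 0.401 to 0.516 in Control libraries. The test was not passed (log2 fold change -0.33, 95% interval -1.22 to 0.55, adjusted p 0.51, edgeR), so a change of up to about that width was not detectable at this depth.

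Ifitm6 had 10, 13 and 13 counts in SA@BATMAN5 libraries, while Control libraries had 7 counts in replicate 2 and 0 in replicates 1 and 3. The count ratio was 6.87 (counting interval 3.01 to 18.3), and the fitted log2 fold change was 2.69 (95% interval 0.52 to 4.86, adjusted p 0.0193, edgeR). Leaving out Control replicate 2 raised it to 6.83. The call was lost without Control replicate 1 or 3 or without SA@BATMAN5 replicate 2 or 3, with adjusted p of 0.0776, 0.0790, 0.0648 and 0.0525 (edgeR). How reads of these similar genes were shared out rests on the counting tool, which bears most on Ifitm1 and Ifitm6, whose levels are a small part of those of Ifitm2 and Ifitm3. In GENCODE M21 (GRCm38), 40.9% of the exon bases of Ifitm2 are shared with Gm45717 on the same strand, a gene at 1.22 CPM in SA@BATMAN5 and 0.570 CPM in Control libraries. Exons of the other 9 members overlap no other annotated gene there.

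**Figure D2:**
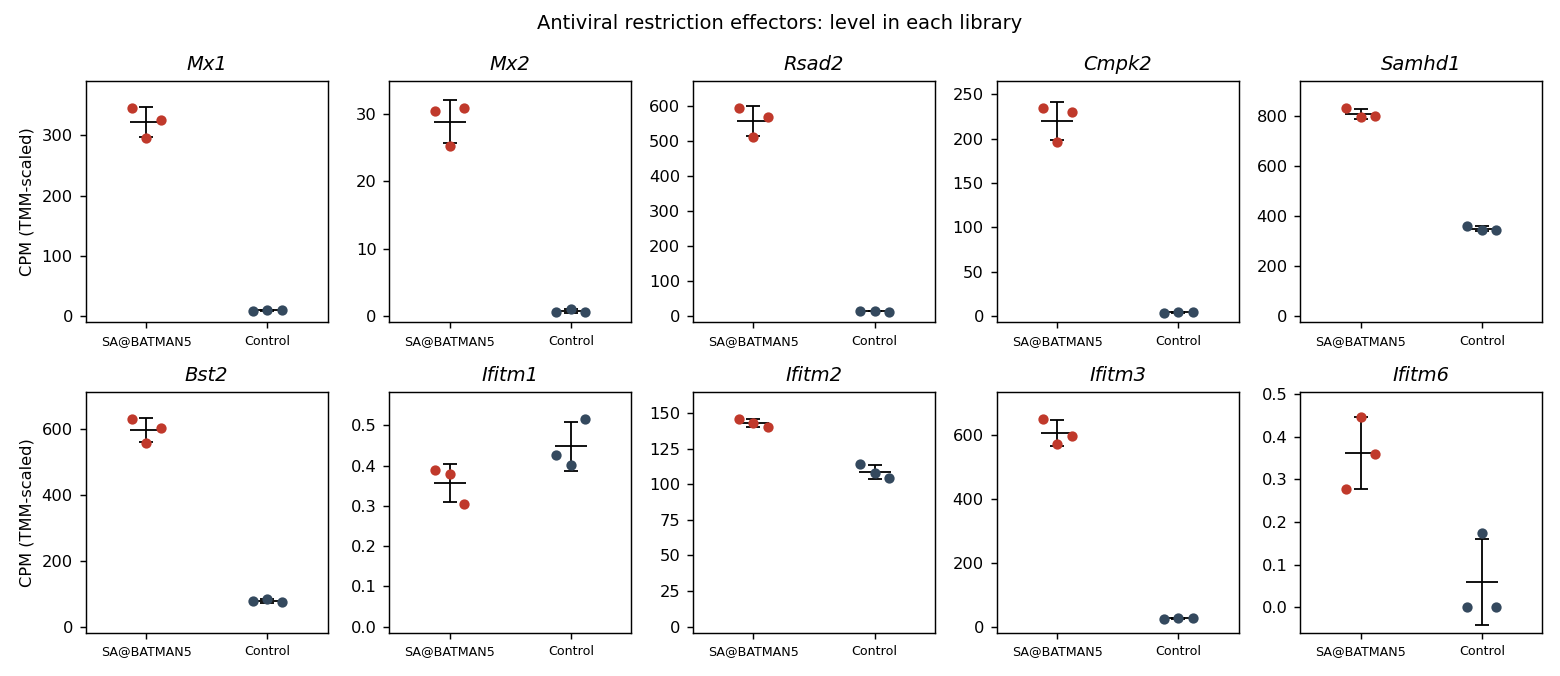
Level of each member in CPM (y axis, own linear scale per panel) in the 3 SA@BATMAN5 and the 3 Control libraries; points are libraries, bars the mean ± SD. Groups are far apart for Mx1, Mx2, Rsad2, Cmpk2, Samhd1, Bst2 and Ifitm3, close for Ifitm2, and at or below 0.516 CPM for Ifitm1 and Ifitm6.

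FPKM, which divides by transcript length, allows levels to be compared between genes. In SA@BATMAN5 libraries the order was Ifitm3 (723 ± 42.1 FPKM), Bst2 (609 ± 30.5), Samhd1 (221 ± 6.88), Ifitm2 (176 ± 4.72), Rsad2 (119 ± 7.82), Mx1 (94.8 ± 5.53), Cmpk2 (56.2 ± 4.78) and Mx2 (11.6 ± 1.14), as mean ± SD over n = 3. Ifitm6 and Ifitm1 followed at 0.428 ± 0.105 and 0.315 ± 0.0346 FPKM, and their ranges overlapped. In Control libraries the order began with Ifitm2 (142 ± 6.88 FPKM), Samhd1 (104 ± 3.25), Bst2 (83.3 ± 5.51) and Ifitm3 (32.2 ± 3.17). Rsad2 (3.10 ± 0.277 FPKM) and Mx1 (2.83 ± 0.0558) overlapped there, Cmpk2 stood at 1.12 ± 0.156, and the ranges of Ifitm1 and Mx2, and of Mx2 and Ifitm6, overlapped below it. By mean FPKM among the 23034 genes, Ifitm3 was at position 58 in SA@BATMAN5 and 1687 in Control libraries, and Bst2 at position 70 in SA@BATMAN5 and 645 in Control libraries. The 10 members summed to 2115, 1936 and 1984 FPKM in SA@BATMAN5 libraries, against 375, 374 and 357 FPKM in Control libraries.

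The make-up of the Ifitm transcripts differed between the groups. Ifitm3 supplied 81.1%, 79.4% and 80.4% of the summed FPKM of the 4 Ifitm members in SA@BATMAN5 libraries, against 16.0%, 19.5% and 19.9% in Control libraries. Ifitm2 supplied 18.8%, 20.5% and 19.5% in SA@BATMAN5 libraries and 83.7%, 80.1% and 79.9% in Control libraries. The sum itself was 951, 874 and 876 FPKM in SA@BATMAN5 libraries and 178, 176 and 169 FPKM in Control libraries. Ifitm3 thus led in each SA@BATMAN5 library and Ifitm2 in each Control library. The exact two-sided permutation p for either share was 0.1, the smallest possible (0.16 adjusted over 8 comparisons). Since Ifitm2 and Ifitm3 make up nearly all of the sum, their shares mirror each other and are not separate results. The 8 comparisons also hold the Rsad2 to Cmpk2 and Mx1 to Mx2 ratios in both CPM and FPKM.

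**Figure D3:**
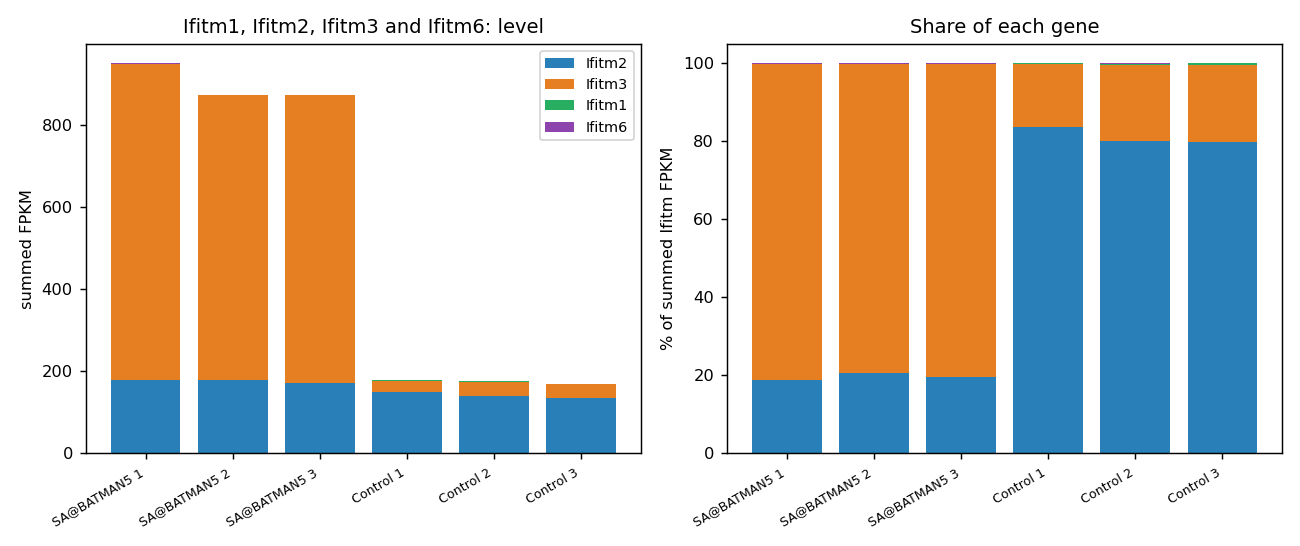
Summed FPKM of Ifitm1, Ifitm2, Ifitm3 and Ifitm6 (left, y axis FPKM) and the share of each gene in that sum (right, y axis %) in each SA@BATMAN5 and Control library. Ifitm3 makes up 79.4% to 81.1% in SA@BATMAN5 libraries and Ifitm2 79.9% to 83.7% in Control libraries; Ifitm1 and Ifitm6 are too low to see clearly.

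Of the 10 members, 8 (all but Mx1 and Mx2) matched a RefSeq promoter table (GRCm38.p6), and the 250 bases upstream of the annotated start were searched on both strands. The ISRE core, spelled GAAANNGAAA, was found in 3 of the 8, Rsad2, Bst2 and Ifitm2, and in 2.98% of all 32536 promoters of that length. Printed here are the last 150 bases before the start of these 3 and, since it rose 23.7-fold without a match, of Ifitm3. Sequences run 5′ to 3′ on the gene's strand (minus in each case), with ISRE cores in capitals.
Rsad2, chr12:26456453-26456602: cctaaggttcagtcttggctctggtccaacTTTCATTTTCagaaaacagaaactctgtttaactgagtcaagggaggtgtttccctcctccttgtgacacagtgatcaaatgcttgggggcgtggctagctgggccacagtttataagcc
Bst2, chr8:71537473-71537622: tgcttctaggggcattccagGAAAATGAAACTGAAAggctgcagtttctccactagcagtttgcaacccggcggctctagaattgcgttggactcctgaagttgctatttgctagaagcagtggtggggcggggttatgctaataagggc
Ifitm2, chr7:140955962-140956111: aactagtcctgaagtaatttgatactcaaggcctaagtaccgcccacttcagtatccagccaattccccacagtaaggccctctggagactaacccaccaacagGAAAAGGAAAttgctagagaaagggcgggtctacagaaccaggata
Ifitm3, chr7:141010745-141010894: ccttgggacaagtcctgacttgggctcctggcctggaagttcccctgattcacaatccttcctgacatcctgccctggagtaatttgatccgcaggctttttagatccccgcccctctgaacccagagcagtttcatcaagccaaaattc
In Bst2 a pair of cores overlaps, and in Rsad2 the core lies on the opposite strand. A GAS core, spelled TTCNNNGAA, was found in Samhd1, Ifitm6 and Bst2 (3 of 8, against 7.04% of all promoters), and in Bst2 it overlaps the first ISRE core. A kappaB core, spelled GGGNNNNNCC, was found in Ifitm3, Bst2 and Rsad2, against 46.0% of all promoters. The ISRE core was thus present in the promoter of Ifitm2 (fold 1.31) and of Rsad2 (fold 40.5), and was not among the letters of this window in Cmpk2 (fold 53.0) or Ifitm3. A match describes letters only and not binding.

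Genes of the interferon route and of related functions were counted in lists. The interferon ligand genes of the list were at or near 0 (of the Ifna genes it holds Ifna1, Ifna2, Ifna4 and Ifna5). Of 9 ligand genes, 5 had no count in any library and 0 had a count in Control libraries. Ifnb1 had 5, 0 and 5 counts in SA@BATMAN5 libraries, Ifng had 10, 5 and 16, and Ifna2 and Ifna5 had 2 counts each, in replicate 3. At this depth a count of 0 allows up to 3 counts. The samples were taken once, at 24 hours.

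Of the 5 tested receptor genes 3 rose (Ifnar1, Ifnar2, Ifngr2) and 2 fell (Ifngr1, Il10rb) (median log2 fold change 0.41). Ifnar2 and Ifnar1, which form the type I receptor, both rose. Ifnar2 was at 237 ± 7.31 CPM in SA@BATMAN5 and 126 ± 4.59 CPM in Control libraries, and Ifnar1 at 312 ± 7.90 CPM in SA@BATMAN5 and 217 ± 8.43 CPM in Control libraries (SD, n = 3 each, as in all such pairs here). Ifngr1, the ligand-binding chain for interferon gamma, fell to 104 ± 1.28 CPM in SA@BATMAN5, against 265 ± 6.84 CPM in Control libraries (log2 fold change -1.34 ± 0.03 SE, adjusted p 2.23e-13, edgeR). Of 14 transducers and brakes of the pathway 10 rose and 1 fell (median 1.10). Irf7, a transcription factor that amplifies interferon output, had 871 ± 64.5 CPM in SA@BATMAN5 and 9.08 ± 0.650 CPM in Control libraries. Usp18, which dampens the type I receptor, had 99.1 ± 4.78 CPM in SA@BATMAN5 and 7.60 ± 0.348 CPM in Control libraries. The gene that fell was Socs1, a JAK inhibitor, at 10.8 ± 0.647 CPM in SA@BATMAN5 and 20.7 ± 1.18 CPM in Control libraries. Socs3, the other Socs gene of the list, rose (log2 fold change 3.63 ± 0.11 SE, adjusted p 1.20e-12, edgeR).

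Among 14 sensors of viral nucleic acid and their adaptors 11 rose and 1 fell (median log2 fold change 0.96). Zbp1, a sensor of Z-form nucleic acid, was at 175 ± 8.35 CPM in SA@BATMAN5 and 6.04 ± 1.01 CPM in Control libraries. Rigi, the RNA sensor RIG-I, was at 228 ± 5.42 CPM in SA@BATMAN5 and 26.5 ± 1.08 CPM in Control libraries. The DNA-sensing receptor gene Tlr9 fell to 1.86 ± 0.243 CPM in SA@BATMAN5, against 4.53 ± 0.504 CPM in Control libraries. Of 24 other restriction factors 19 rose and 2 fell (median 1.66, below the 3.76 of the 10 members). Ifi44 stood at 92.7 ± 9.17 CPM in SA@BATMAN5 and 0.705 ± 0.105 CPM in Control libraries, and Rtp4 at 233 ± 4.30 CPM in SA@BATMAN5 and 5.86 ± 0.261 CPM in Control libraries. Those that fell were Serinc5, which lowers the infectivity of retroviral particles, and Marchf8, a ubiquitin ligase that removes viral envelope proteins, by 0.47 and 0.32 on the log2 scale.

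Samhd1, Rsad2 and Cmpk2 act on nucleotides, so genes of deoxynucleotide and pyrimidine supply were set beside them. A fall was called for 14 of the 23 tested and a rise for 1, with a median log2 fold change of -0.28. Dut, which hydrolyses dUTP, fell to 8.07 ± 1.15 CPM in SA@BATMAN5, against 36.6 ± 1.37 CPM in Control libraries. Tk1, the cytosolic thymidine kinase, fell to 4.18 ± 0.597 CPM in SA@BATMAN5, against 11.0 ± 1.75 CPM in Control libraries. The gene that rose was Dck, deoxycytidine kinase, at 165 ± 8.40 CPM in SA@BATMAN5 and 33.0 ± 1.44 CPM in Control libraries (log2 fold change 2.32 ± 0.05 SE, adjusted p 2.48e-14, edgeR). Of 13 CDKs, cyclins and CDK inhibitors, a group that includes the kinases known to phosphorylate SAMHD1, 7 fell and 1 rose (median -0.25). Among the kinase genes listed, Cdk1 fell by 1.05, Cdk2 by 0.27 and Cdk4 by 0.25 on the log2 scale. Cdk6 did not pass (log2 fold change -0.06, adjusted p 0.246, edgeR). Ccne2 and Ccnd1 fell by 1.40 and 1.37 on the log2 scale, and Ccnd3, cyclin D3, rose by 1.08.

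Of 11 genes for assembly and delivery of iron-sulphur clusters, which viperin needs, 4 rose and 4 fell (median 0.07), from -0.31 for Isca1 to 0.42 for Isca2. Of 9 enzymes and partners of IFITM proteins 3 rose and 2 fell (median 0.06), and scaling by library totals in place of TMM gave 1 higher and 4 lower. Vapa, a membrane contact protein bound by IFITM3, had the largest rise, of 0.45, and the 2 that fell were Zdhhc7, a palmitoyltransferase, and Nedd4, a ubiquitin ligase, with log2 fold changes of -0.31 and -0.24. Among 6 tested relatives of the members (other IFITM and dynamin family genes) 2 rose and 2 fell. Ifitm10 was at 1.57 ± 0.149 CPM in SA@BATMAN5 and 0.568 ± 0.318 CPM in Control libraries, and Dnm2, the ubiquitous dynamin, at 155 ± 3.89 CPM in SA@BATMAN5 and 123 ± 5.61 CPM in Control libraries. Dnm3, another dynamin, fell to 0.928 ± 0.162 CPM in SA@BATMAN5, against 2.06 ± 0.369 CPM in Control libraries, and Opa1, a mitochondrial fusion GTPase, to 70.3 ± 1.14 CPM in SA@BATMAN5, against 82.0 ± 1.87 CPM in Control libraries.

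**Figure D4:**
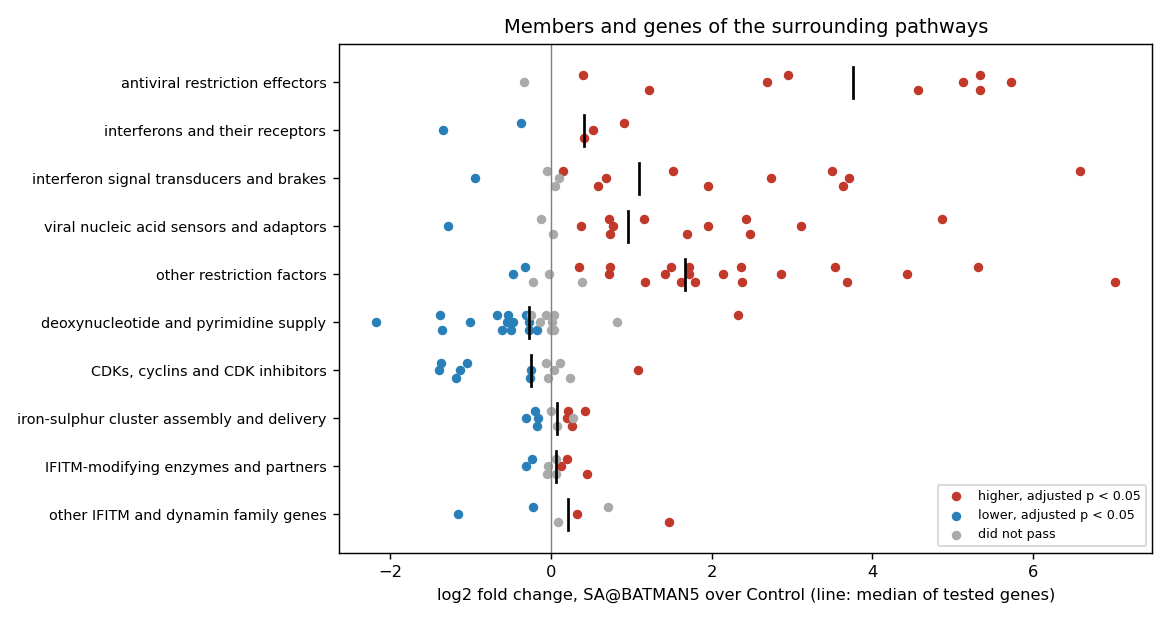
Log2 fold change (SA@BATMAN5 over Control, x axis) of the tested genes of each list, 1 point per gene, coloured by the outcome of edgeR's test, with a line at the median. The members have a median of 3.76 and other restriction factors 1.66, while deoxynucleotide supply (-0.28) and cell cycle genes (-0.25) lie left of 0.

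Markers of other cell types were low, apart from stromal ones. Of 8 neutrophil markers, 4 (Mpo, Ctsg, Ly6g, Retnlg) were at 0 throughout. Elane, too low to be tested, had 0 counts in SA@BATMAN5 and 7 in Control libraries. The 8 summed to 61.3 to 71.3 CPM in SA@BATMAN5 and 8.32 to 8.80 CPM in Control libraries. Most of this was S100a8, which stood at 61.7 ± 4.96 CPM in SA@BATMAN5 and 5.63 ± 0.104 CPM in Control libraries. All 3 neutrophil markers tested rose (S100a8, S100a9 and Ngp). S100a9 was at 3.10 ± 0.378 CPM in SA@BATMAN5 and 1.73 ± 0.238 CPM in Control libraries. Ngp was at 1.78 ± 0.460 CPM in SA@BATMAN5 and 1.09 ± 0.0929 CPM in Control libraries. The 4 monocyte markers summed to 11.7 to 12.6 CPM in SA@BATMAN5 and 10.6 to 13.2 CPM in Control libraries. Within them Ly6c2 stood at 6.15 ± 0.553 CPM in SA@BATMAN5 and 0.0761 ± 0.0674 CPM in Control libraries, and Ccr2 at 4.30 ± 1.19 CPM in SA@BATMAN5 and 11.3 ± 1.17 CPM in Control libraries. The 7 lymphocyte markers summed to 2.72 to 6.49 CPM in SA@BATMAN5 and 0.702 to 1.60 CPM in Control libraries, with Cd3e, Cd3g and Ncr1 at 0 counts. Both lymphocyte markers tested rose, Klrb1c to 3.27 ± 0.841 CPM in SA@BATMAN5, against 0.813 ± 0.230 CPM in Control libraries, and Cd79a to 0.394 ± 0.124 CPM in SA@BATMAN5, against 0.145 ± 0.0974 CPM in Control libraries. Ms4a1, not tested, had all of its 87 counts among SA@BATMAN5 libraries in replicate 3 and 8 counts in Control libraries. The 5 endothelial markers summed to 2.46 to 2.89 CPM in SA@BATMAN5 and 6.47 to 7.28 CPM in Control libraries. Of the 3 tested Pecam1 fell, to 1.02 ± 0.506 CPM in SA@BATMAN5, against 5.06 ± 0.332 CPM in Control libraries, and Kdr was at 1.08 ± 0.269 CPM in SA@BATMAN5 and 1.12 ± 0.142 CPM in Control libraries. The 8 stromal markers summed to 1077 to 1241 CPM in SA@BATMAN5 and 752 to 936 CPM in Control libraries, mostly Col1a1 and Col1a2, with Lum at 0 counts, and 5 of the 6 tested rose. Ly6c2, Cd79a and the stromal Dcn met the filter through the SA@BATMAN5 libraries alone. Several of these cell types can express Ifitm genes and Bst2, and their part in these results was not tested.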

How the data were processed

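Counts per gene for each library, in whole numbers, were deposited by the authors, together with FPKM that the authors computed, per the file headers. HISAT2 2.2.0, StringTie 2.1.2, DESeq2 1.26.0 and build GRCm39 are named in the submitters' processing notes. Which tool did the counting, on which annotation and with what strand setting, is not given in the sources used here. The columns named S-5 were read as SA@BATMAN5 and those named N as Control, which rests on the column names alone. The authors' own comparisons were not used.

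The whole table was filtered with filterByExpr (minimum count 10, minimum total 15), TMM-scaled and passed to edgeR 4.0.16 in R 4.3.3 (glmQLFit, glmQLFTest, two-sided, group as single term). P-values were adjusted over all 13474 tested genes by Benjamini-Hochberg, with a threshold of 0.05, and the procedure was tested on simulated data. Standard errors come from the fitted weights. Floors are 3 counts and, with intervals at 95%, cover the error of counting or of the fit. Pairs of libraries within a group were unlike beyond counting error (chi-square over its degrees of freedom 4.60 to 8.16), and none was merged.

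Members and lists were chosen with earlier results of these data known. The rule for named list genes takes up to 2 with the largest rise and 2 with the largest fall among called genes with a mean of at least 1 CPM, and the 2 most abundant markers of each other cell type. Not all of them are described. Markers at 0 counts, Ccr9, Spib, Ngp, Elane, Cd79a, Dcn, Ifngr2, Socs3, Cdk1, Cdk2, Cdk4 and Cdk6 were named outside that rule, after their values were seen. The alternatives were other scalings, filters, tests (DESeq2 1.42.0, limma 3.58.1 on log2(FPKM + 1) and log2(FPKM + 0.1)), a replicate block, a 2-fold threshold and leaving out each library. Thinning was added after seeing the data. Promoters and gene order are from RefSeq on GRCm38.p6, another build than the authors', and figures were drawn with matplotlib 3.10.9.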

Additional observations from a re-analysis of the deposited data

How the results depend on the processing

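Mx1, Mx2, Rsad2, Cmpk2, Samhd1, Bst2 and Ifitm3 kept their direction and their call under all 17 alternatives, Mx1 between 4.64 and 5.18, Cmpk2 between 4.75 and 5.84 and Samhd1 between 1.08 and 1.23 on the log2 scale. Mx2 ranged from 3.30, with limma on log2(FPKM + 1), to 5.64. Ifitm2 lost its call against a 2-fold threshold (adjusted p 1, edgeR), where 7 members were called. Ifitm1 passed under none of the 16 that kept it (lowest adjusted p 0.0513, limma on log2(FPKM + 1)). Ifitm6 lost its call with no filter (adjusted p 0.0527) and against the 2-fold threshold (0.168), ranged from 2.07 to 6.83 with a library left out, and was 0.42 with limma on log2(FPKM + 1). A filter at 1 CPM removed Ifitm1 and Ifitm6, and thinning removed Ifitm6. Same-numbered libraries did not deviate together (correlations 0.0124, -0.00284 and 0.00508), so the numbers were not read as pairs. With the replicate block 9 members were called higher, as without it, and cell cycle genes higher numbered 2 in place of 1. The difference in the Rsad2 to Cmpk2 ratio was -0.40, -0.39 with FPKM and -0.58 to -0.24 with a library left out. That in the Mx1 to Mx2 ratio was -0.24, -0.38 with FPKM and -0.48 to -0.07 with a library left out.

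Counts in lists moved more. With library totals or the upper quartile, which put the median of all genes at -0.08 and -0.09, IFITM partners numbered 1 higher and 4 lower, restriction factors 4 lower, and transducers and sensors 2 lower each. With limma on FPKM, at either pseudocount, IFITM partners numbered 1 higher, iron-sulphur genes 2 higher, restriction factors 4 lower and sensors 2 lower. With DESeq2, cell cycle genes higher numbered 2. Against a 2-fold threshold, cell cycle genes numbered 0 higher and 2 lower, nucleotide supply 3 lower, receptors 0 higher and 1 lower, sensors 6 higher and 0 lower, and 0 in either direction were left of iron-sulphur genes, IFITM partners and relatives, as of restriction factors and transducers that fell. With a library left out, cell cycle and nucleotide genes higher numbered 1 to 2, IFITM partners lower 1 to 2, iron-sulphur genes lower 2 to 4 and sensors lower 1 to 2. Interferons and their receptors higher numbered 4 in place of 3 with no filter, and 3 to 4 with a library left out. Where 4 were higher, 2 were still lower, against 5 tested in the main fit. At least 1 of the 4 was therefore a gene that the main filter removed. Which gene it was is not given here. Among the genes removed, Ifng had the most counts, 10, 5 and 16 in SA@BATMAN5 libraries and 0 in each Control library. The causes were not tested. Depth limits Ifitm1 and Ifitm6, at 11 to 25 and 0 to 13 counts per library.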

Other observations

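SA@BATMAN5 replicate 2 had the lowest CPM of its group for 7 of the 10 members, namely Mx1, Mx2, Rsad2, Cmpk2, Samhd1, Bst2 and Ifitm3. Among the 1236 genes that rose by at least 2-fold that library was lowest for 36.2%, and among all tested genes for 33.8%. It was also the shallowest library, with 29739263 counts. Without it the log2 fold changes of these 7 members were 1.22 for Samhd1, 2.99 for Bst2, 4.60 for Ifitm3, 5.18 for Mx1, 5.40 for Rsad2, 5.42 for Mx2 and 5.80 for Cmpk2. The pattern was noticed in the data, and what lies behind it was not tested.

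Protein-coding genes next to the members in RefSeq's order (GRCm38.p6, used for order only) were looked at as values. Fam3b, which lies between Mx1 and Mx2, was at 0.818 ± 0.257 CPM in SA@BATMAN5 and 0.0634 ± 0.0641 CPM in Control libraries, and met the filter on low counts through the SA@BATMAN5 libraries alone. Sox11, on the far side of Cmpk2, was at 3.92 ± 0.583 CPM in SA@BATMAN5 and 2.25 ± 0.383 CPM in Control libraries (adjusted p 0.00292, edgeR), and Rnf144a, on the far side of Rsad2, at 0.763 ± 0.133 CPM in SA@BATMAN5 and 0.249 ± 0.0669 CPM in Control libraries, of which 1 reached the filter's cutoff. Mvb12a, next to Bst2, was at 30.4 ± 1.20 CPM in SA@BATMAN5 and 24.5 ± 1.59 CPM in Control libraries (adjusted p 0.000819, edgeR). Ccdc194, on the other side of Bst2, was at 0.618 ± 0.0699 CPM in SA@BATMAN5 and 0.211 ± 0.0591 CPM in Control libraries. That Control mean lies under the filter's cutoff of 0.263 CPM. Rbl1, next to Samhd1, was at 28.9 ± 0.502 CPM in SA@BATMAN5 and 29.6 ± 1.73 CPM in Control libraries and did not pass (adjusted p 0.65, edgeR). Bace2, Tmprss2, Tldc2, Ifitm5 and B4galnt4, the remaining neighbours, had group means of at most 0.402 CPM and were not tested. Among all tested genes 29.5% rose. The strand setting of the counts is not known, and reads of a member and of a gene that overlaps it on the other strand cannot be told apart. In GENCODE M21 (GRCm38) no member had exons that overlap those of a gene on the other strand. These neighbours were looked up after the members' values had been seen.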
